A study of Mus musculus with 8 samples.

Results

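The genes described here build fatty acids and store them as triglyceride. They were the 31 genes named in a list of this pathway, found by symbol among the 22962 genes of the expression table, and all 31 were present. The list spans 7 genes that supply citrate, acetyl-CoA and NADPH, 3 genes of chain synthesis, 7 of desaturation and elongation, 11 of glycerolipid assembly and 3 regulators. The cells were mouse stromal vascular fraction cells, the non-adipocyte cells of fat tissue, taken from wild-type gonadal tissue and grown into adipocytes in culture. Of 8 bulk RNA-seq libraries, 4 came from cultures given the solvent DMSO and 4 from cultures given DoxSa, both on day 6, with no other agent or allele named. DoxSa is not spelled out in the labels, while the title of the series is about 1-deoxysphingolipids. The sources used here give neither its dose nor the length of exposure. Nothing says whether the 4 libraries of a group came from separate cultures or animals, so the tests measure only the spread between these samples.

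Fat cells make fatty acids from citrate that leaves the mitochondrion. The citrate carrier exports it, ATP citrate lyase splits it into acetyl-CoA and oxaloacetate, and malic enzyme returns the carbon of oxaloacetate as pyruvate while making NADPH, which the pentose phosphate pathway also supplies. Acetyl-CoA carboxylase and fatty acid synthase then build palmitate, desaturases and elongases reshape it, and acyltransferases, lipins and diacylglycerol acyltransferases join the chains to glycerol. The transcription factors SREBP-1c and ChREBP switch on many of these genes in response to insulin and glucose.

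The libraries held between 39213008 and 41365861 reads assigned to genes, recovered from the steps of the FPKM values, and between 18726 and 19108 genes were above 0. FPKM divides the reads of a gene by its length and by the library total, so a comparison between genes rests on the lengths used. The recovered length was 22389 bases for Lpin2 and 3523 bases for Lpin3. The sources used here do not say what these lengths cover. Fabp4 and Adipoq, used here as markers of the labelled mature adipocytes, stood at 8698 ± 203 and 774 ± 29.8 FPKM in DMSO (SD, n = 4). Macrophage markers were also abundant, with the lysozyme gene Lyz2 at 4631 ± 330 FPKM in DMSO. The 6 endothelial markers summed to at most 2.17 FPKM and the 5 lymphocyte markers in the table to at most 0.0661 FPKM in any library. In such bulk samples, fewer cells of a type and less RNA per cell cannot be told apart.

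In cultures given DoxSa, 5 of the 7 genes that supply citrate, acetyl-CoA and NADPH fell, by 11.3% to 14.8%, while G6pdx and Pgd of the pentose phosphate pathway were not called. The 5 were the citrate carrier Slc25a1, the lyase Acly, pyruvate carboxylase Pcx, malic enzyme Me1 and acetyl-CoA synthetase Acss2. Of the enzymes that assemble triglyceride, Dgat2 fell by 12.4% and the acyl-CoA synthetase gene Acsl4 rose by 26.9%. None of the 3 chain synthesis genes, the 7 desaturation and elongation genes or the 3 regulators was called in either direction. The means of the uncalled chain synthesis genes Fasn and Acacb were also 12.5% and 12.8% lower, and whether the steps differ was not tested. A gene was called at a Benjamini-Hochberg adjusted p under 0.05 in limma on log2(FPKM + 1), adjusted over 12060 tested genes. Fold changes below are on that scale, where the added 1 makes those of genes with few FPKM smaller.

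All 31 members were tested, and 6 were called lower (19.4%) and 1 higher (3.23%). Of all tested genes 5.90% were called, 2.02% lower and 3.88% higher. The members were chosen with earlier results of these data known. The list is therefore not independent of the data, and the shares were not compared by a test. The median log2 fold change was -0.09 over the members and 0.01 over all tested genes, and 25 of 31 members (80.6%) were below 0 against 43.3% of all tested genes. All 4 DoxSa libraries lay below all 4 DMSO libraries for 9 members, where 4.71% of tested genes did so, and above them for 3 members, where 7.80% did. The number called lower was 0 with genes of any level tested (14 at an unadjusted p under 0.05, where 5.25% of all genes were lower) and also 0 when each library was set relative to its adipocyte markers (6 unadjusted, where 2.21% of all genes were lower). It was 2, Slc25a1 and Acss2, without DMSO 2 or DMSO 4. Without DoxSa 1 it was also 2, Acss2 and Mlxipl, of which Mlxipl was not among the 6. The number was 3 without DMSO 3 or DoxSa 4 and 1, Acss2, without DoxSa 2.

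**Figure D1:**
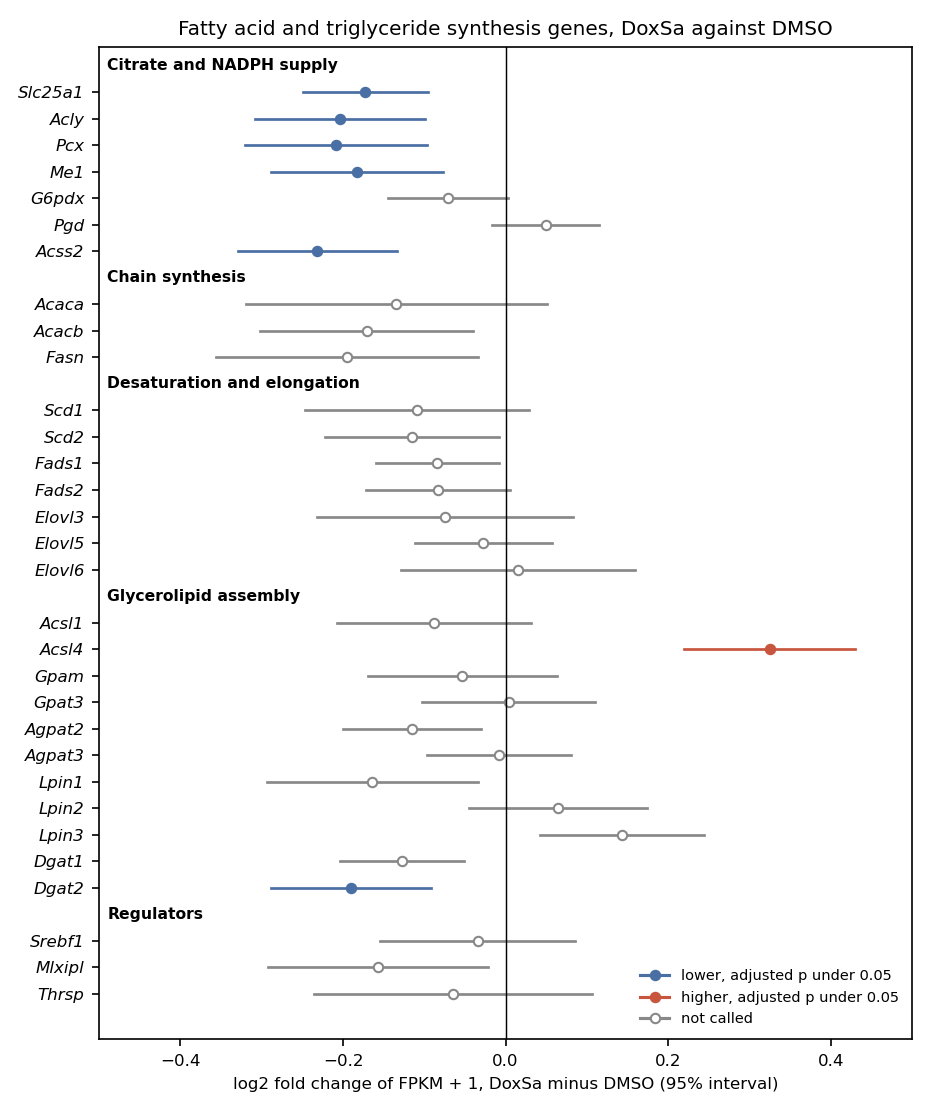
Log2 fold change of FPKM + 1, DoxSa minus DMSO, with its 95% interval for each of the 31 genes, grouped by step and filled where called. The 6 genes called lower lie between -0.23 and -0.17, where the uncalled Fasn (-0.19) and Acacb (-0.17) also lie, and Acsl4 is farthest right at 0.32.

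Among the supply genes, 5 of 7 fell and 0 rose, with a median log2 fold change of -0.18. Acss2, which makes acetyl-CoA from acetate, measured 240.4, 250.5, 252 and 258 FPKM in DMSO 1 to 4 and 205, 201, 219.8 and 228 FPKM in DoxSa 1 to 4. Its groups were apart, with DoxSa 1 and DoxSa 2 lowest. The log2 fold change of Acss2 was -0.23 ± 0.04 (SE, adjusted p = 0.0127), the largest fall of the 31 members, and it was called without any 1 of the 8 libraries. Slc25a1, the mitochondrial citrate carrier, measured 275, 282, 279 and 270.4 FPKM in DMSO 1 to 4 and 239, 236, 256 and 250.02 FPKM in DoxSa 1 to 4. The DMSO libraries lay close together and every DoxSa library was below them. The log2 fold change of Slc25a1 was -0.17 ± 0.04 (adjusted p = 0.0161), and the call was lost without DoxSa 1 or DoxSa 2.

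Acly, which splits exported citrate into acetyl-CoA and oxaloacetate, measured 185, 203, 195 and 207 FPKM in DMSO 1 to 4 and 175, 157, 179 and 175 FPKM in DoxSa 1 to 4. Pcx, the mitochondrial enzyme that refills oxaloacetate from pyruvate, measured 175, 186, 174 and 192 FPKM in DMSO 1 to 4 and 159, 142, 165 and 163 FPKM in DoxSa 1 to 4. Me1, the cytosolic malic enzyme, measured 343, 369, 372 and 399 FPKM in DMSO 1 to 4 and 329, 306, 329.5 and 339 FPKM in DoxSa 1 to 4. For all 3 genes the groups were apart and DoxSa 2 was the lowest library. The gap between groups was narrow for Me1, where DoxSa 4 and DMSO 1 lay side by side. The log2 fold changes were -0.20 ± 0.05 for Acly (adjusted p = 0.0296), -0.21 ± 0.05 for Pcx (adjusted p = 0.0372) and -0.18 ± 0.05 for Me1 (adjusted p = 0.0492). Each of these calls was lost on leaving out DMSO 2, DMSO 4, DoxSa 1 or DoxSa 2, and those of Acly and Me1 also without DMSO 3 or DoxSa 4 and that of Me1 without DoxSa 3.

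The pentose phosphate genes, the other source of NADPH, were the 2 supply genes not called, and whether they differ from the other 5 was not tested. G6pdx, which encodes the first enzyme of that pathway, measured 163, 166, 168 and 163 FPKM in DMSO 1 to 4 and 164, 151, 158 and 155 FPKM in DoxSa 1 to 4, a log2 difference of -0.07 (95% interval -0.14 to 0.003, adjusted p = 0.269). Pgd, the gene of 6-phosphogluconate dehydrogenase, measured 261, 269, 268 and 266 FPKM in DMSO 1 to 4 and 283, 274, 271 and 273 FPKM in DoxSa 1 to 4. Its DoxSa libraries were all above its DMSO libraries, but the difference of 0.05 (95% interval -0.02 to 0.11) was not called (adjusted p = 0.404). The differences of G6pdx and Pgd had opposite signs, except relative to adipocyte markers, where that of G6pdx was 0.0033.

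**Figure D2:**
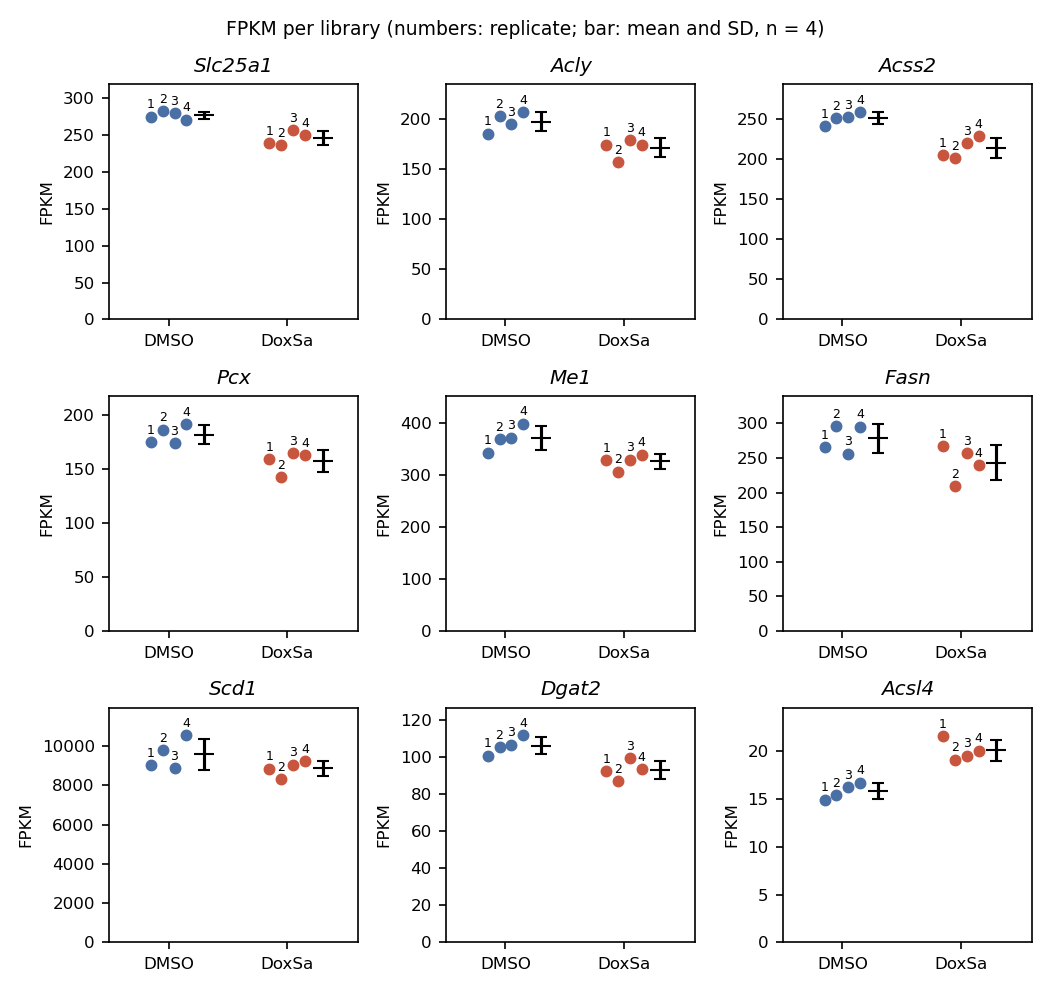
FPKM of 9 genes in each of the 4 DMSO and 4 DoxSa libraries, with axes from 0, replicate numbers over the points and the mean and SD beside each group. Slc25a1, Acss2, Acly, Pcx, Me1 and Dgat2 are lower in every DoxSa library, Acsl4 is higher in every one, and the groups overlap for Fasn and Scd1.

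The sequences just upstream of the 4 called members with the smallest adjusted p are shown because 3 of them, Acss2, Slc25a1 and Acly, fell and Acsl4 rose, and Acsl1 is added as the isozyme set beside Acsl4. Each is the 250 bases before the start site in RefSeq's GRCm38.p6 table, an older build than the GRCm39 of the expression data, and 25 of the 31 members had an entry there. Capitals mark matches on either strand to CCAAT (the box bound by NF-Y, a partner of SREBP), GGGCGG (the GC box bound by Sp1), CACGTG (an E-box), TCACNCCAC (a sterol regulatory element) and TGATGNAA (an element of ATF4 and C/EBP proteins).
Acss2, chr2:155517793-155518042, plus strand: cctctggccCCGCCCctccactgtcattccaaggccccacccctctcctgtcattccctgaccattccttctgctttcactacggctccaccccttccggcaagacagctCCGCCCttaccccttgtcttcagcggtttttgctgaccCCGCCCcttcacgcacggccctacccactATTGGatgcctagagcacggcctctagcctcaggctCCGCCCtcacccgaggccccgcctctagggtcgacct
Slc25a1, chr16:17928220-17928469, minus strand: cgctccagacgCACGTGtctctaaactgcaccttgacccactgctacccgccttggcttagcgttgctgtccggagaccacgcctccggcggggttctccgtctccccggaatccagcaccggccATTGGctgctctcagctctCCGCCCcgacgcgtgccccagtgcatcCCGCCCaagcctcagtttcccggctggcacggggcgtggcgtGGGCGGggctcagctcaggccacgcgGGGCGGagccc
Acly, chr11:100528001-100528250, minus strand: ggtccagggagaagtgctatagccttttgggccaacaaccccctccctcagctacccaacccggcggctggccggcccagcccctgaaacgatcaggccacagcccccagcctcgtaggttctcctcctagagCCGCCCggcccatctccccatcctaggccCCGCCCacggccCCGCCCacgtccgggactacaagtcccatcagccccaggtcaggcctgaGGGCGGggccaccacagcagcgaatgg
Acsl4, chrX:142390536-142390785, minus strand: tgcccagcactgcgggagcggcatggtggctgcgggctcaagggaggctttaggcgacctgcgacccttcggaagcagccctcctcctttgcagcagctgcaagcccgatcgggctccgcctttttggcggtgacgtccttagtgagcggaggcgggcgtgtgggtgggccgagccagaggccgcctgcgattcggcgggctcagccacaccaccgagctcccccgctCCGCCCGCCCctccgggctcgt
Acsl1, start site 1, chr8:46470787-46471036, plus strand: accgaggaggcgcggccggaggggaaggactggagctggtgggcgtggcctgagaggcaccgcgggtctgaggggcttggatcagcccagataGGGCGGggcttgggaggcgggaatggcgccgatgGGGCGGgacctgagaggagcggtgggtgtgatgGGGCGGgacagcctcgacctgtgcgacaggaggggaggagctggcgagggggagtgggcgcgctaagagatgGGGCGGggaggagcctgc
Acsl1, start site 2, chr8:46490716-46490965, plus strand: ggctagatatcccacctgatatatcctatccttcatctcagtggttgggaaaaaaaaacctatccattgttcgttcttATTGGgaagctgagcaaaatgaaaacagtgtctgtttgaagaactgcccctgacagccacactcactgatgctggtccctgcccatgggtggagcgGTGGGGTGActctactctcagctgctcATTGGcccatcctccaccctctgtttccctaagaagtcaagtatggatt

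The windows of Acss2, Slc25a1 and Acly each held 4 GC boxes, and that of Acsl4 held 2 that overlap each other. The first Acsl1 window held 4 GC boxes, and the second held 2 CCAAT boxes and the sterol element, 76 to 68 bases before that start site, which none of the other 4 genes' windows held. A CCAAT box in the reverse orientation, read as ATTGG, lay 73 to 69 bases before the start site of Acss2 and 125 to 121 bases before that of Slc25a1, and the Slc25a1 window also had an E-box. Over 32851 windows of this length in the table, 32.7% held a GC box, 33.8% a CCAAT box, 6.02% an E-box, 1.05% the sterol element and 3.45% the ATF4 element. Over the 36 windows of the 25 members, the shares were 52.8%, 41.7%, 13.9%, 5.56% and 5.56%. Matches were counted by letters alone and were not compared with the expression values by a test.

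None of the 3 genes of chain synthesis was called. At an unadjusted p under 0.05, 2 of them were lower, as were 7.24% of all tested genes. Their spread within groups was wide. Fasn, fatty acid synthase, measured 265, 296, 256 and 295 FPKM in DMSO 1 to 4 and 267, 209.5, 257 and 239.7 FPKM in DoxSa 1 to 4, so that DoxSa 1 lay above DMSO 1 and DMSO 3. The log2 difference of Fasn was -0.19 (95% interval -0.36 to -0.03, adjusted p = 0.163), as large as the falls of the supply genes but with an SE of 0.07. Acaca, the cytosolic acetyl-CoA carboxylase that makes the malonyl-CoA for chain growth, measured 62.9, 72.3, 58.1 and 72.6 FPKM in DMSO 1 to 4 and 66.4, 51.7, 62.7 and 61.1 FPKM in DoxSa 1 to 4. Its groups overlapped, with a coefficient of variation of 10.8% in DMSO where that of Slc25a1 was 1.81%. The difference of Acaca was -0.13 (95% interval -0.32 to 0.05, adjusted p = 0.422). Acacb, the isozyme at the mitochondrial membrane whose malonyl-CoA restrains fatty acid oxidation, was far less abundant, at 6.58, 6.81, 6.32 and 7.41 FPKM in DMSO 1 to 4 and 5.81, 5.31, 6.30 and 6.22 FPKM in DoxSa 1 to 4. The groups of Acacb were apart by a narrow margin, but its difference of -0.17 was not called (adjusted p = 0.132). In both voom fits on recovered reads, too, 0 of the 3 were called.

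The desaturases held the most abundant transcript of the pathway. Scd1, which puts the first double bond into stearate and palmitate, measured 9045, 9805, 8899.9 and 10579.5 FPKM in DMSO 1 to 4 and 8853, 8317, 9066 and 9240.4 FPKM in DoxSa 1 to 4. The groups of Scd1 overlapped, because DMSO 1 and DMSO 3 lay among the DoxSa libraries, and the log2 difference was -0.11 (95% interval -0.25 to 0.03, adjusted p = 0.374). Scd2, its close relative, ranged from 608 to 701 FPKM in DMSO and from 563 to 616 FPKM in DoxSa, with a difference of -0.12 (adjusted p = 0.213). Scd2 made up 6.28% ± 0.158 of the summed FPKM of the pair in DMSO and 6.25% ± 0.122 in DoxSa (SD, n = 4), a similar share. The Scd genes are similar in sequence, and the sources used here do not say how reads matching several copies were counted.

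The delta-5 and delta-6 desaturases, which make polyunsaturated fatty acids, were not called. Fads1 ranged from 58.5 to 61.4 FPKM in DMSO and from 55.0 to 59.0 FPKM in DoxSa (log2 difference -0.08, adjusted p = 0.203), and Fads2 from 40.5 to 45.5 and from 39.5 to 41.7 FPKM (-0.08, adjusted p = 0.285). Of the elongases, Elovl5, which extends polyunsaturated chains, averaged 28.03 ± 0.863 FPKM with DMSO against 27.5 ± 1.07 with DoxSa. Elovl6, which turns palmitate into stearate, measured 8.78 ± 0.575 and 8.90 ± 0.870 FPKM. The interval of the log2 difference was -0.11 to 0.06 for Elovl5 and -0.13 to 0.16 for Elovl6, and the sign of Elovl6 turned under several settings. Elovl3, a gene of cold-activated fat, was barely expressed, at 0.634 ± 0.131 and 0.550 ± 0.106 FPKM, with as few as 36 reads in a library. Of these 7 genes 0 were called by limma and 0 by either voom fit. At an unadjusted p under 0.05, 2 were lower, as were 7.24% of all tested genes.

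Of the 11 genes of glycerolipid assembly, 1 rose and 1 fell, with a median log2 fold change of -0.05. The acyl-CoA synthetases activate free fatty acids, and Acsl4, which prefers arachidonate and other polyunsaturated chains, measured 14.9, 15.4, 16.2 and 16.7 FPKM in DMSO 1 to 4 and 21.6, 19.1, 19.5 and 20.04 FPKM in DoxSa 1 to 4. Every DoxSa library lay above every DMSO library. The log2 fold change of Acsl4 was 0.32 ± 0.05 (SE, adjusted p = 0.00308), and it was called under all 20 other settings and left-out libraries that were tried. Acsl1, the main synthetase of adipocytes, averaged 107 ± 4.96 FPKM with DMSO against 100.4 ± 8.10 with DoxSa (difference -0.09, adjusted p = 0.411). Acsl4 therefore made up 11.9% to 13.7% of the summed FPKM of the 2 genes in DMSO and 16.1% to 17.4% in DoxSa, ranges that did not meet.

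Neither member gene for the first acylation of glycerol 3-phosphate was called. Gpam, the mitochondrial acyltransferase, averaged 78.99 ± 5.67 FPKM with DMSO against 76.02 ± 3.75 with DoxSa, and Gpat3, which sits in the endoplasmic reticulum, 8.07 ± 0.2999 and 8.098 ± 0.506 FPKM. Their log2 differences were -0.05 (95% interval -0.17 to 0.06) and 0.004 (-0.10 to 0.11), and the sign of Gpat3 turned under every rescaling of the libraries except the one to adipocyte markers, while that of Gpam turned under that one. Agpat2, the acyltransferase that adds the second chain and is lost in a congenital lipodystrophy, measured 591, 625, 598 and 619.7 FPKM in DMSO 1 to 4 and 568, 531, 588 and 561 FPKM in DoxSa 1 to 4. The groups of Agpat2 were apart, though DoxSa 3 almost touched DMSO 1, and its difference of -0.11 ± 0.04 (SE) was not called (adjusted p = 0.119). Agpat3 measured 19.3 ± 0.823 and 19.2 ± 0.610 FPKM.

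The lipins remove phosphate from phosphatidate to give diacylglycerol. Lpin1, the main lipin of fat, measured 32.4, 32.7, 31.6 and 35.7 FPKM in DMSO 1 to 4 and 28.4, 26.5, 31 and 32.1 FPKM in DoxSa 1 to 4, a difference of -0.16 that was not called (adjusted p = 0.147). The less abundant Lpin2 and Lpin3 were above their DMSO means and not called. Lpin3 measured 2.41, 2.29, 2.33 and 2.13 FPKM in DMSO 1 to 4 and 2.66, 2.57, 2.68 and 2.61 FPKM in DoxSa 1 to 4, with groups apart and a difference of 0.14 (95% interval 0.04 to 0.24, adjusted p = 0.103). Lpin2 measured 1.56 ± 0.123 and 1.67 ± 0.0291 FPKM (difference 0.06, adjusted p = 0.536). As a share of the 3 lipins, Lpin3 ranged from 5.43% to 6.6% in DMSO and from 7.18% to 8.37% in DoxSa, and Lpin1 from 88.7% to 90.8% and from 86.2% to 88.2%, with no overlap for either.

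The last step, from diacylglycerol to triglyceride, is run by unrelated enzymes, Dgat1 and Dgat2. Dgat2, which acts mainly on newly made fatty acids, measured 101, 105, 107 and 112 FPKM in DMSO 1 to 4 and 92.4, 86.9, 99.2 and 93.2 FPKM in DoxSa 1 to 4. Each DoxSa library was below each DMSO library, with DoxSa 3 just under DMSO 1. The log2 fold change of Dgat2 was -0.19 ± 0.04 (SE, adjusted p = 0.0311), and the call held when DMSO 1 or DoxSa 3 was left out and was lost when DMSO 2, 3 or 4 or DoxSa 1, 2 or 4 was. Dgat1, which handles mainly recycled fatty acids, measured 42.8, 43.8, 45.05 and 43.6 FPKM in DMSO 1 to 4 and 41.2, 38.05, 40.3 and 40.6 FPKM in DoxSa 1 to 4. Its groups were also apart, but the difference of -0.13 ± 0.03 stopped short of the threshold (adjusted p = 0.0558) and passed it in 6 other settings, among them both voom fits. Dgat1 made up 29.2% ± 0.819 of the pair in DMSO and 30.1% ± 0.842 in DoxSa (SD, n = 4), with overlapping libraries.

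**Figure D3:**
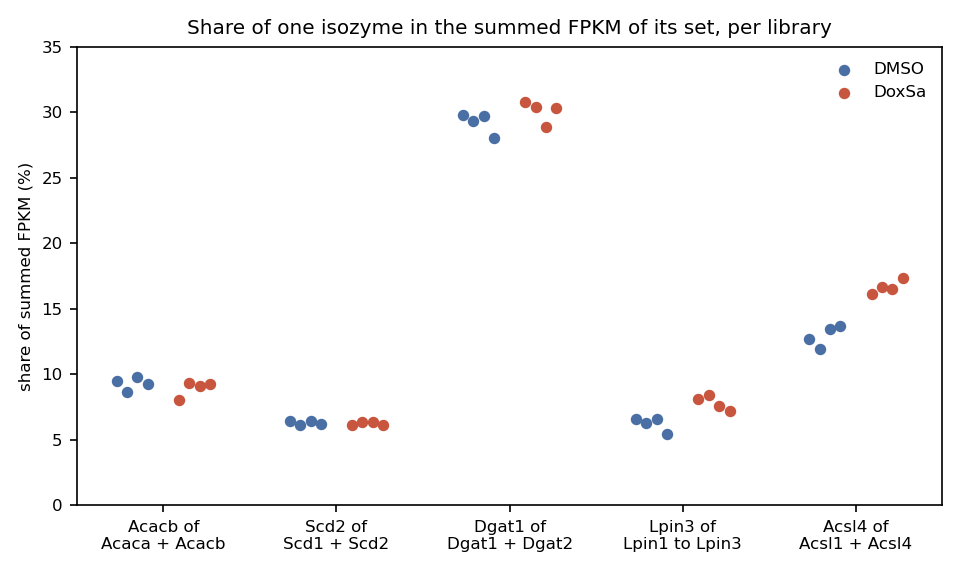
Share of 1 isozyme in the summed FPKM of its set, in percent, for each DMSO and DoxSa library. The points of Acsl4 and Lpin3 do not overlap between groups, while those of Acacb, Scd2 and Dgat1 do.

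None of the 3 regulators was called, and their mean levels were 2.51% (Srebf1), 4.35% (Thrsp) and 14.04% (Mlxipl) lower with DoxSa. Srebf1, which encodes SREBP-1, measured 68.9, 78.3, 66.3 and 75.3 FPKM in DMSO 1 to 4 and 74.1, 66.1, 71.7 and 69.5 FPKM in DoxSa 1 to 4. The groups of Srebf1 overlapped throughout, with a log2 difference of -0.03 (95% interval -0.15 to 0.09, adjusted p = 0.798) that was 0.005 without DMSO 2 and 0.04 relative to adipocyte markers. The table gives 1 value for the gene and does not separate its isoforms. Mlxipl, the gene of ChREBP, was low at 2.56, 2.71, 2.50 and 2.52 FPKM in DMSO 1 to 4 and 2.62, 2.03, 2.10 and 2.10 FPKM in DoxSa 1 to 4. DoxSa 1 sat among the DMSO libraries of Mlxipl and the other DoxSa libraries below them. Its difference of -0.16 was not called (adjusted p = 0.179), but was -0.24 and called without DoxSa 1 (adjusted p = 0.0450). Thrsp, a lipogenic gene that answers to thyroid hormone and carbohydrate, measured 81.7 ± 7.34 and 78.2 ± 8.27 FPKM (difference -0.06, adjusted p = 0.717). Of these 3 genes 0 were called by limma or by either voom fit. At an unadjusted p under 0.05, 1 was lower, as were 7.24% of all tested genes.

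The members differed in how tightly the replicates agreed, and they tended to share the same high and low libraries. DoxSa 2 was the lowest of all 8 libraries for 23 of the 31 genes, and DMSO 4 was the highest for 13 and DMSO 2 for 9. In DMSO, replicates 2 and 4 lay above replicates 1 and 3 for Fasn, Acaca, Scd1, Scd2, Srebf1 and Gpam alike. The mean log2 level of the 3 chain synthesis genes, relative to DMSO, ran -0.06, 0.08, -0.13 and 0.11 for DMSO 1 to 4 against -0.08, -0.35, -0.09 and -0.14 for DoxSa 1 to 4. That of the 7 supply genes ran -0.05, 0.02, -0.0008 and 0.04 for DMSO 1 to 4 against -0.14, -0.23, -0.11 and -0.11 for DoxSa 1 to 4, with the groups apart.

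**Figure D4:**
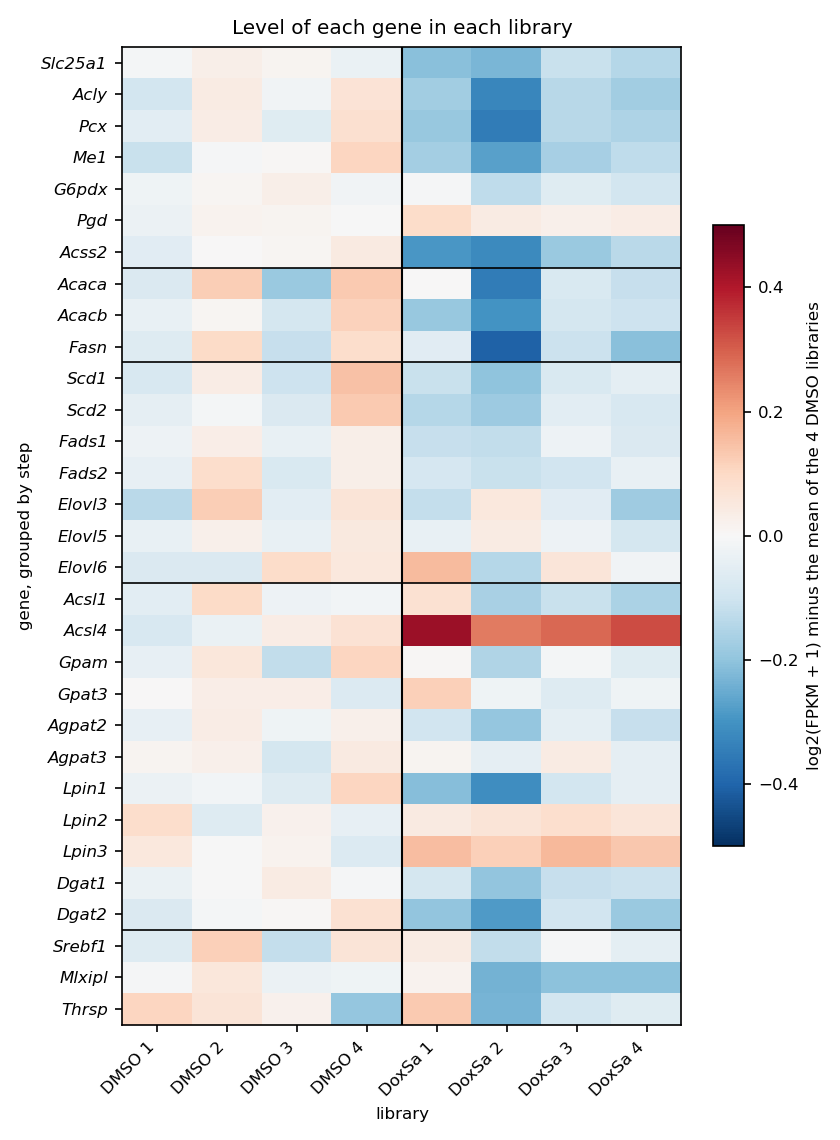
Log2(FPKM + 1) of each of the 31 genes in each library minus the mean of the 4 DMSO libraries, with lines between steps and between groups. DoxSa 2 is the darkest blue column, and the rows of Acsl4 and Lpin3 are red in all 4 DoxSa libraries.

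Markers of adipocytes and of other cell types were measured in the same libraries. Of 16 tested adipocyte markers 14 lay below 0, where 43.3% of all tested genes did, with a median log2 fold change of -0.08. The resistin gene Retn was the 1 called lower (-0.20, adjusted p = 0.0151). The summed adipocyte markers ranged from 13349.9 to 13636 FPKM in DMSO and from 13187 to 13953 FPKM in DoxSa, and none was at 0 in every library. Most of that sum was Fabp4, which averaged 8698 FPKM in DMSO and 8852 FPKM in DoxSa. All 12 macrophage markers lay above 0, where 6839 of 12060 tested genes did, with a median of 0.12, and 2 were called higher, Cd14 and Fcgr1. The 12 summed to 6808 to 7812 FPKM in DMSO and 7597 to 8105 FPKM in DoxSa, and none was at 0 in every library. Most of that sum was Lyz2, which averaged 4631 FPKM in DMSO and 5051 FPKM in DoxSa. Of 4 tested mural and smooth muscle markers 3 were called lower, Acta2, Cnn1 and Myh11, and the 5 summed to 281 to 327 FPKM in DMSO and 180.1 to 200.1 FPKM in DoxSa. Of 9 tested preadipocyte and fibroblast markers 1, Pdgfrb, was called lower, with sums of 3344 to 3702 and 3302 to 3723 FPKM. Of 4 mesothelial markers only Krt19 was tested, and it was not called (-0.24, adjusted p = 0.113), while the sums were 16.3 to 16.9 and 11.1 to 15.6 FPKM. DoxSa 2 had both the lowest mean adipocyte level (-0.11) and the highest mean macrophage level (0.17).

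Set relative to the mean of the adipocyte markers, which raised the median of all genes from 0.01 to 0.09, the log2 differences were -0.16 for Acss2 (adjusted p = 0.0546), -0.13 for Acly (0.0699), -0.13 for Pcx (0.0757), -0.12 for Dgat2 (0.0930), -0.11 for Me1 (0.142) and -0.10 for Slc25a1 (0.126). None of the 6 was then called, Acsl4 stayed called at 0.40, and Pgd and Lpin3 were called higher, at 0.12 and 0.22. The part of cell composition in the differences was not tested.

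**Figure D5:**
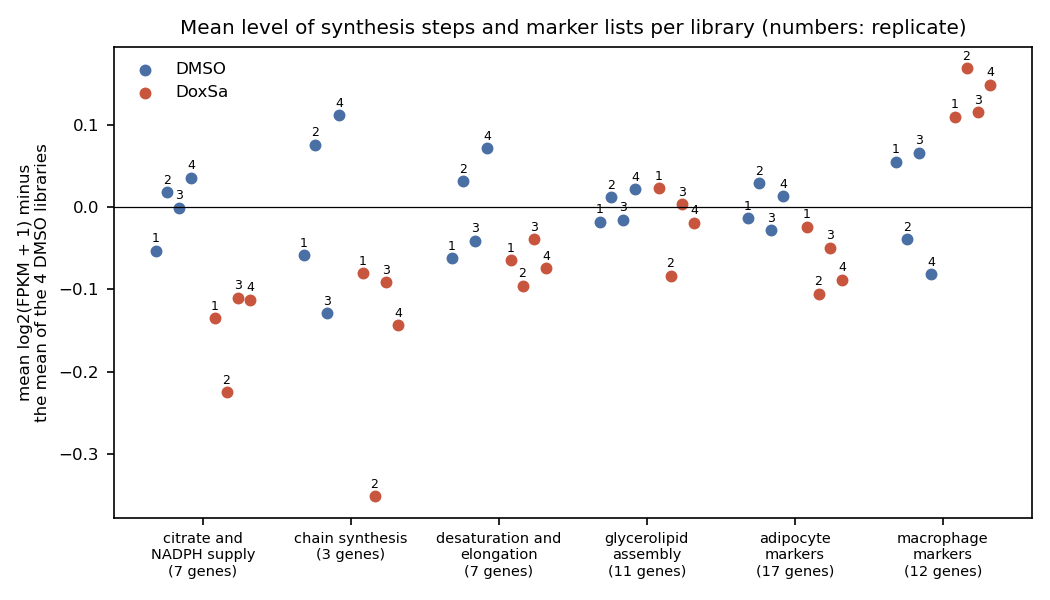
Mean log2(FPKM + 1) of 4 synthesis steps and 2 marker lists in each library, minus the mean of the 4 DMSO libraries, with replicate numbers over the points. The supply step and the macrophage markers are apart between groups, in opposite directions, while the groups of the other 4 sets overlap.

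The other genes of the pathway were read from 3 further lists. Of 46 other enzymes of lipid synthesis 38 were tested and 0 were called (8 lower and 2 higher at an unadjusted p under 0.05), with a median log2 fold change of -0.03. Over all tested genes, 7.24% were lower and 12.6% higher at an unadjusted p under 0.05. The voom fit with scaled totals called 2 of them lower, Tecr, the last enzyme of the elongation cycle, and the transketolase gene Tkt, and the other voom fit called 0. Other settings called 1 lower each: the pyruvate carrier gene Mpc1 with quantile normalization, Tkt with median-of-ratios scaling and Tecr with equal FPKM sums. Without DMSO 1, Mpc2 and Scd3 were called lower, and relative to adipocyte markers Oxsm, Acsl5 and Acbd3 were called higher. All of these were named after their values were seen, and the limma differences of Tecr and Tkt were -0.11 (adjusted p = 0.0659) and -0.10 (adjusted p = 0.0933). Scd3, named after its values were seen, had the lowest fold change of that list but a wide spread, with 8.81, 17.5, 18.8 and 25.9 FPKM in DMSO 1 to 4 and 11, 8.92, 10.8 and 12.4 FPKM in DoxSa 1 to 4 (-0.59, adjusted p = 0.187). Without DMSO 1, its lowest DMSO library, the difference of Scd3 was -0.87 (adjusted p = 0.00374).

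Of 32 regulators of lipid synthesis, among them Scap, the Insig genes, LXR genes and the insulin receptor, all were tested and 0 were called (1 lower and 2 higher unadjusted, 0 by either voom fit), with a median of 0.01. The glucose transporter gene Slc2a4 was called lower without DoxSa 1, and Nfya, Mid1ip1 and Prkab1 were called higher relative to adipocyte markers. Of 22 genes of the sterol arm of the SREBP program, 0 were called (4 lower and 2 higher unadjusted, 0 by either voom fit), with a median of -0.05. Whether the members differ from these lists was not tested.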

How the data were processed

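Bulk RNA-seq of 8 libraries (4 DMSO, 4 DoxSa) was deposited as 1 table of FPKM, made by the authors, and all value columns belonged to these samples. HISAT2, HTSeq and the build GRCm39 are named in the submitters' processing notes, while no source used here gives versions, annotation or strand setting. Groups and replicate numbers came from the titles. Library totals and whole reads were recovered from the FPKM steps for all 12060 tested genes (within 0.001 of a whole number).

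The main test was limma 3.58.1 (R 4.3.3), lmFit and eBayes with intensity trend on log2(FPKM + 1), without covariate or rescaling, for genes averaging 0.5 FPKM or more. Adjusted p is Benjamini-Hochberg over all of them. The scripts were tested on simulated data.

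All members are described by step. Values in every library are given for called members, for groups that do not overlap and for the best known gene of each step, and further lists were to be named by up to 4 called genes in their main direction and 2 in the other, of which there were none. Members and lists were chosen with earlier results of these data known. Alternatives were other scalings, pseudocount 0.1, other filters, no trend, library weights, a replicate block and leaving out each library. Voom with recovered totals, voom with scaled totals and scaling to adipocyte markers were chosen after seeing the data. Python 3.11.15, numpy 2.4.6, pandas 2.3.3 and matplotlib 3.10.9 were used otherwise.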

Additional observations from a re-analysis of the deposited data

Results flagged for a closer look

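Mlxipl measured 2.62 FPKM in DoxSa 1, far from the 2.03 to 2.10 FPKM of the other DoxSa libraries, and the gap was 0.888 of the range of its group, above Dixon's 95% critical value for 4 samples. It was the 1 library marked among 62 groups of 4 examined, where chance marks about 1 in 20.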

How the results depend on the processing

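The number of members called lower was 6, and between 1 and 6 without single libraries. It was 0 with no filter, which tests 22962 genes, 2 with no intensity trend and 0 relative to adipocyte markers. The labels do not say whether the replicate numbers pair the samples. Deviations from the group mean correlated between -0.0989 and 0.0654 for same-numbered libraries and between -0.205 and 0.154 for others. These values cannot show whether same-numbered libraries share an origin. With the replicate block 3 members were called lower. Relative to adipocyte markers 3 members were called higher, and over all genes 1734 higher and 128 lower. With no filter 158 genes were called higher and 108 lower, and 370 lower by voom with scaled totals. Without single libraries 234 to 486 were called higher and 152 to 234 lower. Acsl4 was called throughout, and Acss2 in 18 of 20 settings.

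Signs turned for members that were never called. Without single libraries Elovl6 lay between -0.0330 and 0.0678, Gpat3 between -0.0341 and 0.0260, Agpat3 between -0.0373 and 0.0071 and Srebf1 between -0.0736 and 0.0054. Elovl6 was -0.0052 with quantile normalization and -0.0005 with median-of-ratios scaling. Gpat3 was -0.0178 and -0.0114 under the same scalings, -0.0086 with equal FPKM sums, -0.0134 with library weights and -0.0123 by voom with scaled totals. Relative to adipocyte markers Agpat3 was 0.066, G6pdx 0.0033, Elovl5 0.047, Gpam 0.0211, Srebf1 0.0401 and Thrsp 0.0096. Why the results moved between settings was not tested. The 2 planned count models and voom with the planned scaling were not run. The deposited unit is FPKM, and voom on the reads recovered from it was run instead.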
